A study of Rattus norvegicus with 15 samples.

Results

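Circular RNAs (circRNAs) in rat whole blood were compared between 3 d and 1 h after deep venous thrombosis, in which a clot forms in a deep vein, had been modelled. The comparison covered each circRNA listed with a value above 0 in 3 or more of the 6 libraries of these times. This held for 8653 of the 43472 circRNAs in the deposited table (19.9%), which are called members here. The rule used how often a circRNA was listed and not its direction of change, but it was not neutral to direction. A circRNA listed at 1 h alone had to be in all 3 libraries of that time, 1 of which listed few circRNAs. There were 37 members listed at 1 h alone and 107 at 3 d alone. A circRNA listed in all 3 libraries of 1 time and in none of the other also satisfied the rule, and such a member had to differ in listing.

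CircRNAs are closed loops that form when a splice donor joins an acceptor that lies upstream of it. Having no free ends, they resist the exonucleases that degrade linear RNA, and many accumulate in blood cells, among them platelets and erythrocytes. They are recognised in sequencing by reads that span this back-splice junction. Some bind microRNAs or proteins, while for most circRNAs no role is known.

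The blood came from Sprague-Dawley rats, an outbred strain; the animals were males aged 6 to 8 weeks and weighing 250 to 300 g. Blood was drawn 1 h after modelling for one group and 72 h (3 d) after it for the other, with 3 libraries in each. The series also holds sham (0 h), 6 h and 12 h groups of 3 libraries, which served to estimate the spread. The 1 h, 3 d and sham titles share a prefix ending in A&B, whose meaning the labels do not give. How thrombosis was modelled is not given in the sources used here. Whether each library stands for its own animal is not stated in the labels, so p-values measure the spread between these libraries, which may be technical. The table gives each circRNA a running number and pairs none with a gene or a position, so host genes, blood cell markers and sequences were not analysed here.

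Values are SRPBM, back-spliced reads per 1e9 mapped reads of the library. In the 6 libraries 69.3 to 89.7 M reads were mapped (M stands for 1e6), and a single back-spliced read was worth 11.1 to 14.4 SRPBM. The first 1 h library (1 h replicate 1) stood apart from the others: it held 2551 circRNAs against 9354 to 15366 in the other 5, at 73.3 M mapped reads. Results are therefore given with and without it. A value of 0 is given as listed at 0, since no value above 0 stood for fewer than 2 reads.

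The members were split by their mean over the 6 libraries. There were 5050 members (58.4%) with a mean under 100 SRPBM, 3187 (36.8%) from 100 to 1000, 395 (4.56%) from 1000 to 10000, and 21 (0.24%) at 10000 or above. The medians of these means were 47.1, 197, 1741 and 15399 SRPBM. At the edge of the rule, the 2533 circRNAs listed in exactly 3 of the 6 libraries had a median mean of 35.1 SRPBM, and the 4292 listed in 2, which were left out, had 18.7 SRPBM. In all, 18242 circRNAs were listed in 1 or 2 of the 6 libraries.

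How many members a library listed depended on abundance and on the library. Among members under 100 SRPBM, 1 h replicate 1 listed 408 of 5050 (8.08%), while 1 h replicates 2 and 3 listed 75.9% and 87.5%. The 3 d libraries listed 70.6%, 58.1% and 69.7% of them, fewer than either of the latter. From 100 to 1000 SRPBM, the shares at 1 h were 37.6%, 97.3% and 99.2%, and those at 3 d were 96.3%, 92.1% and 94.3%. The order of the libraries was the same in these 2 lower classes: 1 h replicate 3 highest, then 1 h replicate 2, then 3 d, with 1 h replicate 1 far below. From 1000 to 10000 SRPBM, 1 h replicate 1 listed 89.1% and the other 5 libraries 99.0% to 100%. At 10000 or above, 20 of the 21 members were listed in all 6 libraries, and the remaining one was CBT15_circR_5191, listed at 0 in 1 h replicates 1 and 2. In whole blood, fewer cells of a type and less RNA per cell cannot be told apart.

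**Figure D1:**
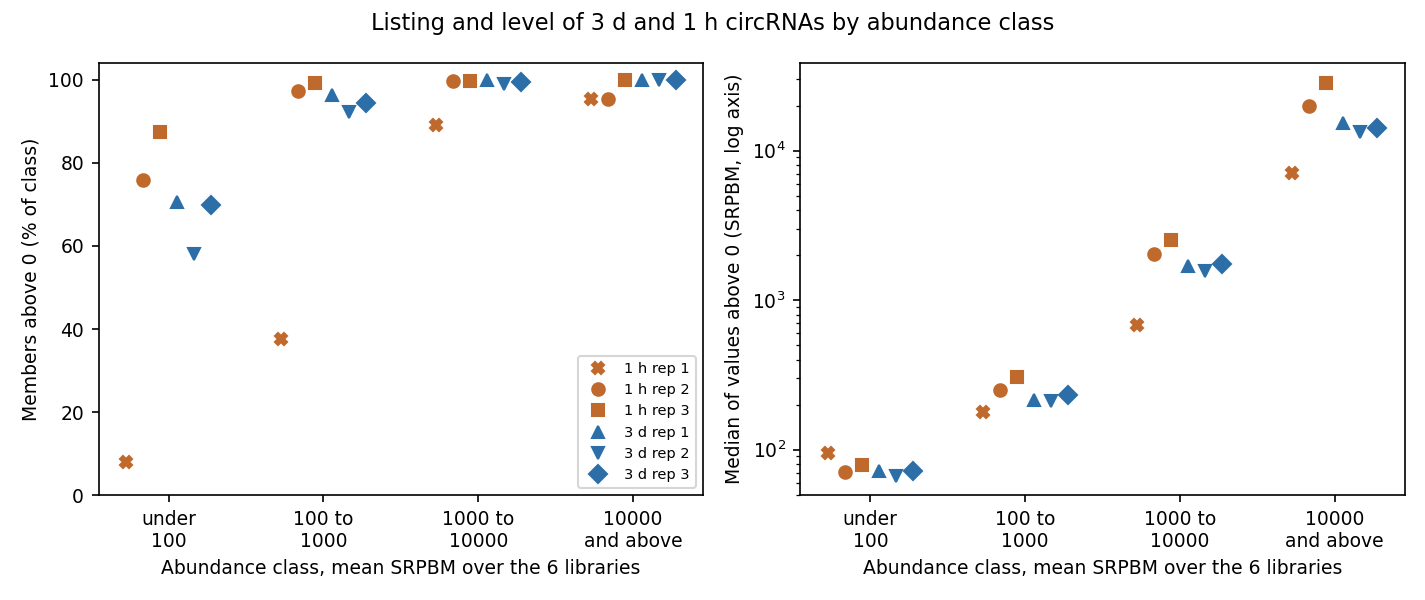
Share of members above 0 (left, percent of the class) and median of the values above 0 (right, SRPBM, log axis) in each of the 3 libraries at 1 h (brown) and 3 at 3 d (blue), by abundance class. 1 h replicate 1 (cross) listed 8.08% of the lowest class and 37.6% of the next, and its listed values in the upper 2 classes lay below those of the other 5 libraries.

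Listed in all 6 libraries were 1404 members (16.2%). A further 2705 were listed at 0 in exactly 1 library, and in 2482 of these that library was 1 h replicate 1. The other 5 libraries accounted for 7 to 95 such members each, with 95 in 3 d replicate 2. Of the 3187 members from 100 to 1000 SRPBM, 1678 (52.7%) were at 0 in 1 h replicate 1 alone. In that class, therefore, a mean over the 1 h libraries mixed a 0 with 2 values above 0 in most members.

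Over all members, the libraries at 3 d listed 6757 ± 416 (SD, n = 3) and those at 1 h 5774 ± 3304 (n = 3), a ratio of 1.17 (two-sided exact permutation p = 1). Without 1 h replicate 1, the 1 h mean was 7673 ± 456 (n = 2) and the ratio turned to 0.88 (exact permutation p = 0.2). With 3 libraries against 3 the smallest p is 0.1, and with 2 against 3 it is 0.2. None of the 10 tests of listing and signal passed (adjusted p = 1 for each over the 10 tests, and 0.29 or above without that library). In members under 100 SRPBM the ratio went from 1.16 to 0.81, and from 100 to 1000 SRPBM it went from 1.21 to 0.96. In the class from 1000 to 10000 SRPBM the ratio went from 1.03 to 0.997.

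A comparison of 2 libraries with 2, over the whole table and without 1 h replicate 1, was added after the data were seen. 1 h replicates 2 and 3 both listed 1278 to 1516 circRNAs that were at 0 in both libraries of a 3 d pair. The reverse, listed in both libraries of a 3 d pair and at 0 in both of these 1 h libraries, held for 313 to 394. Their median levels were 62.8 to 64.0 SRPBM for the first kind and 58.7 to 62.5 for the second. The highest reached 1746 to 4876 SRPBM in the first kind and 527 to 2486 in the second. Listed in all 4 libraries of such a set were 4279 to 4640 circRNAs. The 3 sets share the same 1 h libraries, so they are not independent.

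Levels showed the same order of libraries. From 1000 to 10000 SRPBM, the median listed member lay at 682, 2023 and 2522 SRPBM at 1 h and at 1696, 1561 and 1746 at 3 d. At 10000 or above, the medians of listed members were 7072, 19837 and 28453 SRPBM at 1 h and 15310, 13343 and 14152 at 3 d. The 3 d libraries lay close to each other and below 1 h replicates 2 and 3, and 1 h replicate 1 lay below all 5. Under 100 SRPBM the medians of listed values gave another order, with 1 h replicate 1 highest at 95.5 SRPBM against 66.9 to 78.8 in the other 5.

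The other times of the series place these levels. From 1000 to 10000 SRPBM, the median over all members of the class was 1455 and 1751 SRPBM in sham replicates 1 and 3, 1810 to 2339 at 6 h and 1429 to 2334 at 12 h. The remaining sham library, replicate 2, which also listed few circRNAs (2958), had a median of 1226 SRPBM. The 3 d libraries, at 1549 to 1731, and 1 h replicate 2, at 2017, lay within the range of these groups. 1 h replicate 3, at 2522, lay above it and 1 h replicate 1, at 600.2, below it. The labels put 6 h and 12 h under another title prefix, so time and prefix cannot be told apart for them.

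Pairs of libraries were then compared member by member on the log2(SRPBM + 23.2) scale, where 23.2 is the median of the 15 libraries' smallest values above 0. Under 100 SRPBM, the median absolute log2 difference was 1.17 to 1.29 between 2 libraries of 3 d, 0.90 between 1 h replicates 2 and 3, and 0.98 to 1.30 between a 3 d library and either of these. Libraries of different times thus differed about as much as libraries of the same time in this class. From 100 to 1000 SRPBM, the values were 0.62 to 0.68 within 3 d, 0.53 within 1 h and 0.58 to 0.88 between the times. From 1000 to 10000 SRPBM, they were 0.39 to 0.44, 0.39 and 0.39 to 0.75. At 10000 or above, they were 0.27 to 0.35, 0.40 and 0.33 to 0.97. In these upper 2 classes the closest pair of different times was no further apart than replicates, and the widest pair was further apart. Pairs that included 1 h replicate 1 reached 1.16 to 3.05 over the 4 classes. From 100 SRPBM up, that library lay further from the other 1 h libraries than from any 3 d library.

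**Figure D2:**
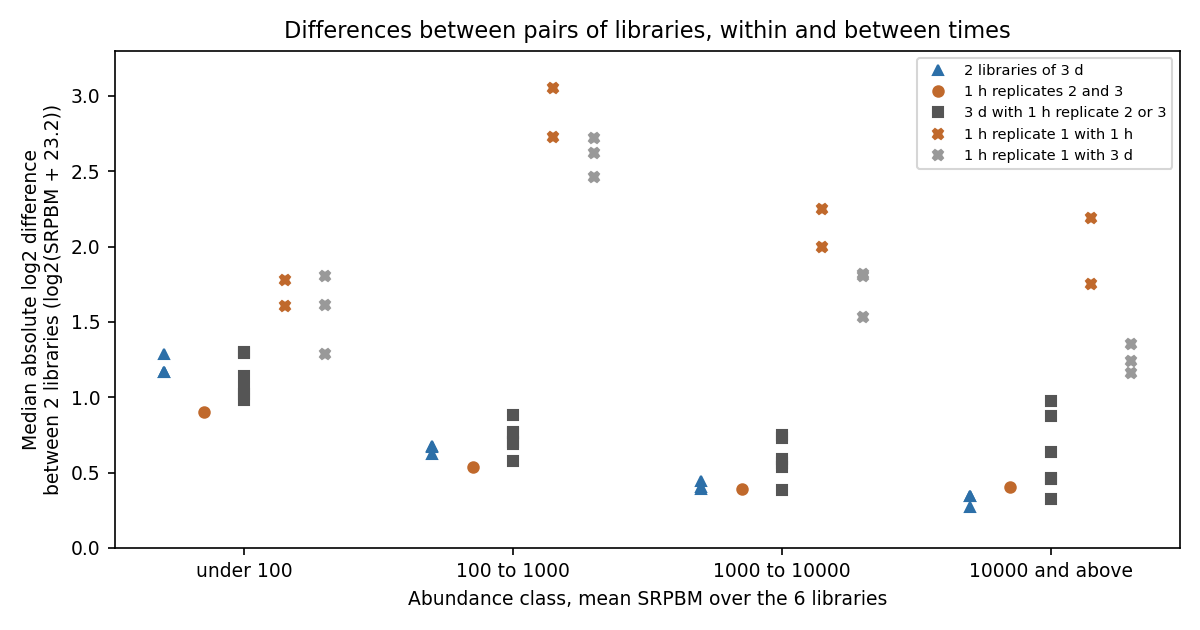
Median absolute log2 difference (log2(SRPBM + 23.2)) between 2 libraries over the members of each abundance class; each point is a pair, from the same time (blue 3 d, brown 1 h) or from different times (grey). Pairs with 1 h replicate 1 (crosses) lie at 1.16 to 3.05. Without that library, the closest pairs between times (dark squares) overlap the pairs within a time. From 100 SRPBM up, the widest of them reach 0.88, 0.75 and 0.97, against at most 0.68, 0.44 and 0.40 within a time.

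Ranks of members within a class were hardly shared between libraries at low abundance. Spearman's rho across the members under 100 SRPBM was -0.01 to 0.04 within 3 d and 0.20 between 1 h replicates 2 and 3. From 1000 to 10000 SRPBM it was 0.69 to 0.75 within 3 d and 0.85 between those 1 h libraries, against 0.47 to 0.69 between them and 3 d. With 1 h replicate 1 it was 0.02 to 0.41 in that class. These correlations run across circRNAs, which are not independent replicates, and members of a class span a limited range of means by definition.

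Counting error accounts for a different share of the spread in each class. Over members listed in all 3 libraries at 3 d, the median coefficient of variation was 44.3% under 100 SRPBM (1340 members). The Poisson counting error at the mean level was 39.0% there. It was 37.5% against 23.3% from 100 to 1000 SRPBM, 23.8% against 8.62% from 1000 to 10000, and 21.4% against 2.98% at 10000 or above. Low members thus lay nearest to the counting error, and abundant members lay several times above it. With 3 libraries the median coefficient falls below the true one, so the excess over counting is understated in every class. The Poisson values cover counting error only, since PCR copies are not independent molecules, and both kinds of value leave out members with a 0.

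Differences between the times were fitted per circRNA with limma on the log2(SRPBM + 23.2) scale, where a difference understates the change of low circRNAs. All 15 libraries entered the fit, and p-values were adjusted over the 16767 circRNAs that 3 or more of them listed. The median fitted difference, 3 d minus 1 h, was 0.20 under 100 SRPBM, 0.49 from 100 to 1000, 0.25 from 1000 to 10000 and 0.13 at 10000 or above, against 0.02 over all circRNAs tested. Without 1 h replicate 1 these medians were -0.34, -0.41, -0.42 and -0.63, against -0.27 over all tested. The sign of the median turned in every class with this 1 library. The share of members with a difference above 0 went from 61.2% to 34.7%, and over all tested it went from 51.7% to 40.2%. These medians are descriptions with no test.

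Leaving out any other library of the 6 left the medians above 0 in every class, from 0.03 (10000 or above, without 3 d replicate 1) to 1.06 (100 to 1000 SRPBM, without 1 h replicate 3). Scaling each library by its median ratio over the 886 circRNAs listed in all 15 libraries moved the median over all tested by 0.13. The factors were 0.47, 1.17 and 1.48 at 1 h and 1.03, 0.87 and 0.94 at 3 d. With this scaling and without 1 h replicate 1, a combination added after the data were seen, the medians of the classes were -0.05, 0.02, 0.04 and -0.16, and that over all tested was 0.00. Scaling to the total circRNA signal shifted the median over all tested by -0.20 and turned all 4 class medians negative. In the 4 of the 6 libraries that list it, CBT15_circR_5191 makes up 55.6% to 79.0% of that total.

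**Figure D3:**
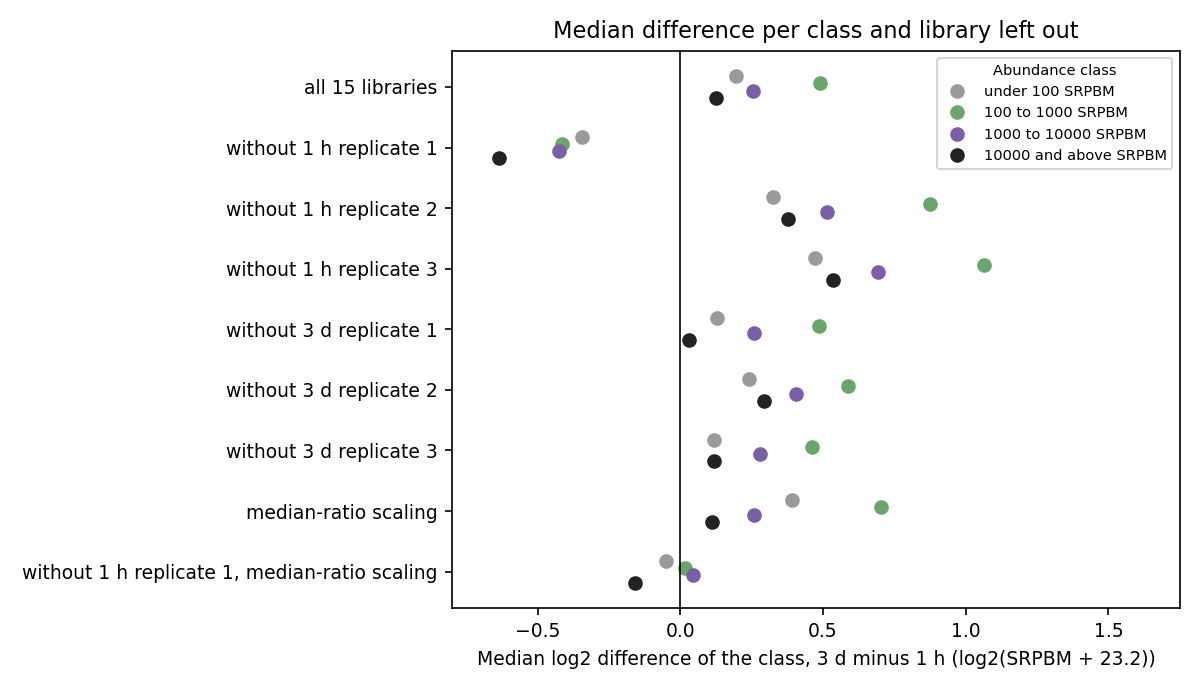
Median fitted log2 difference (3 d minus 1 h) of the members in each of 4 abundance classes, with all 15 libraries, without each library of the 2 times, and with median-ratio scaling. The medians lie at 0.13 to 0.49 with all libraries, at -0.63 to -0.34 without 1 h replicate 1 and at -0.16 to 0.04 without it after median-ratio scaling.

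Limma called 5 of the 8653 members at an adjusted p under 0.05, 3 higher and 2 lower at 3 d. Over all circRNAs tested it called 6 of 16767 (0.0358%), 3 in each direction (0.0179% each). The sixth, CBT15_circR_5184, was listed in 1 h replicate 2 alone among the 6 libraries and is no member. Of the 5 called members, 0 were under 100 SRPBM, 3 were from 100 to 1000, 0 from 1000 to 10000 and 2 at 10000 or above. At an unadjusted p under 0.05, there were 457 members (5.28%), 318 higher and 139 lower, against 4.92% of all tested (2.68% higher and 2.24% lower). By class, 185 members (3.66%) reached it under 100 SRPBM, 210 (6.59%) from 100 to 1000, 55 (13.9%) from 1000 to 10000 and 7 of 21 at 10000 or above.

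Without 1 h replicate 1, limma called 4 members, 1 higher and 3 lower. Over all tested it then called 5 of 16693 (0.03%), with 0.00599% higher and 0.024% lower. At an unadjusted p under 0.05 there were 593 members, 96 higher and 497 lower, against 7.25% of all tested (0.857% higher and 6.39% lower). The balance of the directions thus turned with that library, from 318 higher of 457 to 96 higher of 593. It also moved with the scaling: 650 members were higher and 162 lower with median ratios (825 and 343 over all tested). Scaled to the total circRNA signal, 48 members were higher and 800 lower (95 and 1233 over all tested). With median ratios and 1 h replicate 1 left out, 200 members were higher and 216 lower, against 274 and 675 over all tested. The near balance in that setting thus held for the members and not over all tested. The fits with and without that library, both unscaled, shared 2 called members, CBT15_circR_23689 and CBT15_circR_40460. With the spread of a circRNA not tied to its abundance, limma called 0 members and 0 of 16767 over all tested. In that fit 557 members had an unadjusted p under 0.05, against 776 over all tested. On the recovered reads, voom called 7 members (7 of 16767 over all tested).

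CBT15_circR_23689 fell. It lay at 1951, 878 and 2117 SRPBM in the 1 h libraries (143, 74 and 188 reads), while every 3 d library listed it at 0 (limma adjusted p = 5.07e-05). It is a member through the 1 h libraries alone, so groups that do not overlap followed from the rule. 1 h replicate 1, which listed few circRNAs, was among its high libraries. Without that library the adjusted p was 0.0112, and the call held in 17 of 21 alternatives. The call was lost with a filter of at least 3 of the 6 libraries (limma adjusted p = 0.178) and with a pseudocount of 1 SRPBM (0.827). It was also lost with the spread not tied to abundance (0.942), and without 1 h replicate 1 after median-ratio scaling (0.145). The residual spread of this circRNA was 2.46 on the log2 scale, against 1.20 that the trend gave for its abundance. Of the 9 libraries of the other times, 4 listed it, with up to 1787 SRPBM.

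CBT15_circR_17098 fell too. It lay at 1023, 368 and 394 SRPBM at 1 h (75, 31 and 35 reads), and every 3 d library had it at 0 (limma adjusted p = 0.0141). It too is a member through 1 h alone, which forced the groups apart. Its highest value was in 1 h replicate 1, and without that library the adjusted p was 0.0706. It was called in 8 of 21 alternatives, and leaving out any single 3 d library ended the call (0.110, 0.111 and 0.210). It was listed in 8 of the 9 libraries of the other times, with a median of 335.5 SRPBM.

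CBT15_circR_40460 rose. Every 1 h library listed it at 0, and it lay at 95.5, 959 and 1212 SRPBM at 3 d (8, 86 and 84 reads; limma adjusted p = 0.018). The 3 d libraries differed among themselves, with replicate 1 far below the other 2. It is a member through 3 d alone, so here too the gap between the groups followed from the rule. Without 1 h replicate 1 the adjusted p was 0.0386. It was called in 7 of 21 alternatives, and not when the fit left out 1 h replicate 3 (0.0542), 3 d replicate 2 (0.482) or 3 d replicate 3 (0.952). At the other times it was listed in 7 of 9 libraries.

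CBT15_circR_5191, the most abundant member, was listed at 0 in 1 h replicates 1 and 2 and at 9.85 M SRPBM in replicate 3, and its 3 d values were 12.0, 10.2 and 28.7 M SRPBM (limma adjusted p = 2.08e-18). The listed 1 h value, in replicate 3, lay just below the lowest 3 d value, so its difference rested on the 2 zeros. Without 1 h replicate 1 the adjusted p was 0.103. Its residual spread between libraries of a group was 8.46 on the log2 scale, against 0.23 that the trend gave for its abundance. At the other times it was listed in 7 of 9 libraries, so that zeros stood beside values of several M within groups. It was called in 14 of 21 alternatives, and not with the spread not tied to abundance (0.942).

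CBT15_circR_5185 had 1 h values of 0.656, 2.54 and 1.69 M SRPBM and 3 d values of 2.10, 1.99 and 4.90 M SRPBM. The groups overlapped: 1 h replicate 2 lay above 3 d replicates 1 and 2. Limma called it higher (log2 difference 0.95, standard error (SE) 0.14, adjusted p = 8.91e-07), with a residual spread of 0.67 against 0.13 from the trend. The call was lost without 1 h replicate 1 (0.602), the lowest library, and without 3 d replicate 3 (0.952), the highest. Scaled to the total circRNA signal its log2 difference turned to -0.82 (adjusted p = 2.51e-07).

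**Figure D4:**
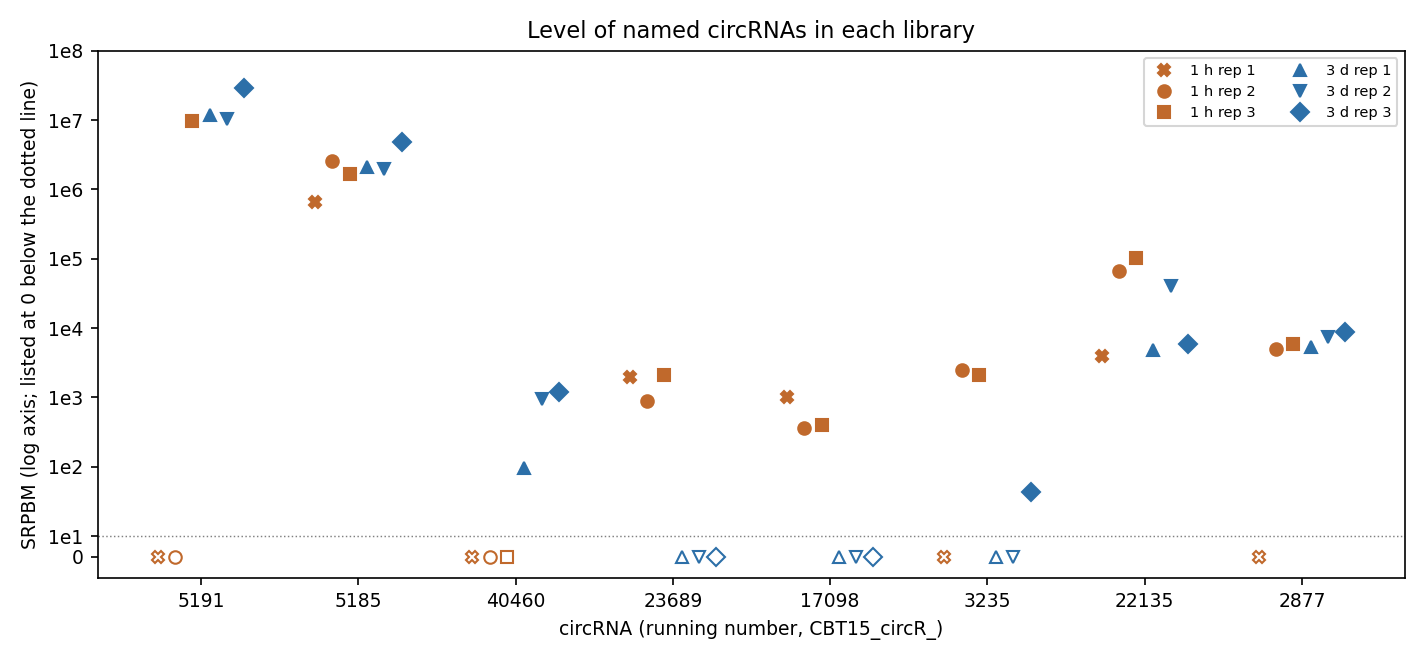
SRPBM (log axis) of 8 named circRNAs in each library at 1 h (brown) and 3 d (blue); open marks below the dotted line are libraries listed at 0. CBT15_circR_23689 and CBT15_circR_17098 are listed at 0 in the 3 libraries at 3 d, and CBT15_circR_40460 in the 3 at 1 h.

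The fit without 1 h replicate 1 called a further 2 members, both lower at 3 d. CBT15_circR_3235 lay at 2503 and 2139 SRPBM in 1 h replicates 2 and 3 (211 and 190 reads), and at 0, 0 and 43.3 SRPBM at 3 d (log2 difference -6.15, SE 0.99, limma adjusted p = 0.000116). In 1 h replicate 1 it was listed at 0, and with that library the adjusted p was 0.144. Of 21 alternatives to the fit with all libraries, this one included, 6 called it. It was listed at 0 in the 3 sham libraries, and at 145 SRPBM or less in 5 libraries at 6 h and 12 h. The 2 high libraries thus stood above the other 13 of the series.

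CBT15_circR_22135 was called lower in that fit as well (log2 difference -2.98, SE 0.47, limma adjusted p = 0.000116). Its residual spread there was 1.33, against 0.34 from the trend. Of 22 alternatives to the fit with all libraries, this one included, 7 called it. Its values were 3983, 67354 and 103409 SRPBM at 1 h and 4837, 40887 and 5973 at 3 d. Both groups held low and high libraries, and with all libraries the groups overlapped (adjusted p = 0.576). Over the other times it ran from 4243 to 92711 SRPBM.

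The members with the smallest p per class and direction, where not named above, did not pass. Under 100 SRPBM, CBT15_circR_38784 was at 0 in each 1 h library and lay at 167, 279 and 130 SRPBM at 3 d (limma adjusted p = 0.775). In the other direction CBT15_circR_37631 lay at 40.9, 59.3 and 203 SRPBM at 1 h and at 0 in the 3 libraries at 3 d (adjusted p = 0.452), and it was listed in no library of the other times. Between 3 and 25 reads stood behind each of these values above 0. Each of these members satisfied the rule through 1 time alone, so the gap between its groups followed from the rule. CBT15_circR_2877, from 1000 to 10000 SRPBM, was at 0, 4959 and 5979 SRPBM at 1 h and at 5410, 7390.4 and 8814 at 3 d (adjusted p = 0.0853). Its log2 difference of 3.00 (SE 0.73) was 0.37 (SE 0.55) without 1 h replicate 1, where it was listed at 0. CBT15_circR_21441, lower in that class, lay at 3765, 1993 and 2612 SRPBM at 1 h and at 1481, 0 and 635 at 3 d (adjusted p = 0.245). Its 3 values at 3 d all lay below those at 1 h, with 1 h replicate 1 the highest.

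Of the 10 members with the highest means, 7 remain beyond those given above, and limma called none of these 7 in either fit. CBT15_circR_19347 lay at 19410, 77925 and 91587 SRPBM at 1 h and at 74375, 80748 and 80485 at 3 d, with log2 differences of 0.60 (SE 0.32) with 1 h replicate 1 and -0.11 (SE 0.26) without it. CBT15_circR_24056 behaved alike, at 7011, 60461 and 54339 SRPBM at 1 h and 47601, 66179 and 57547 at 3 d, and its difference went from 0.99 (SE 0.37) to -0.02 (SE 0.31). In both, 1 h replicate 1 was the single low library. CBT15_circR_10908 did not share this pattern: it lay at 18605, 18129 and 21225 SRPBM at 1 h and at 16862, 12529 and 14874 at 3 d, with every 3 d library below every 1 h library (log2 difference -0.40, SE 0.45, adjusted p = 0.936).

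CBT15_circR_33733 was at 7134, 24108 and 32563 SRPBM at 1 h and at 16970, 8851 and 8714 at 3 d. CBT15_circR_43355 was at 19178, 34620 and 51513 SRPBM at 1 h and at 27622, 21770 and 16129 at 3 d. CBT15_circR_9992 was at 20488, 66512 and 95088 SRPBM at 1 h and at 52426, 42737 and 32531 at 3 d. In these 3 members 1 h replicates 2 and 3 lay above all 3 d libraries. The same held for CBT15_circR_6871, at 20608 and 30762 SRPBM in 1 h replicates 2 and 3 and at 17650, 15338 and 15667 at 3 d, with 1 h replicate 1 at 7666. The log2 differences of the 4, without 1 h replicate 1, were -1.36 (SE 0.38), -0.98 (SE 0.34), -0.93 (SE 0.30) and -0.64 (SE 0.35), with limma adjusted p = 0.235, 0.398, 0.338 and 0.713.

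**Figure D5:**
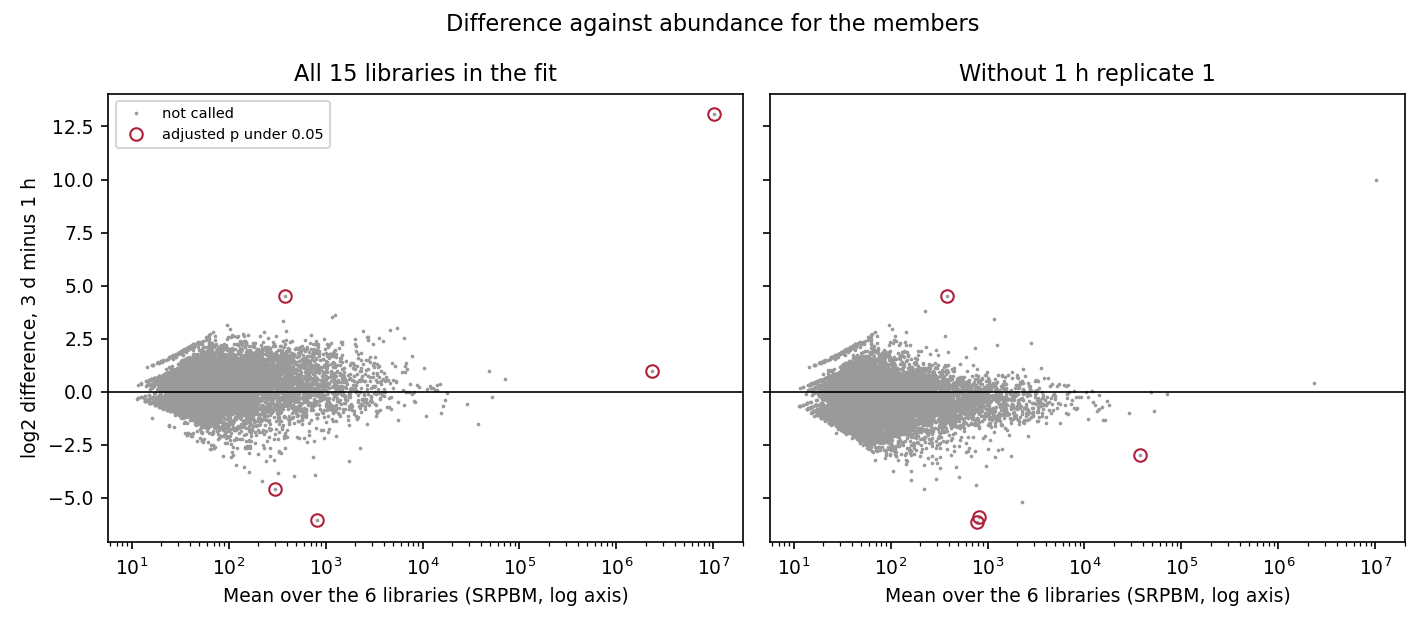
Fitted log2 difference (3 d minus 1 h) against the mean over the 6 libraries (SRPBM, log axis) for the members, with all 15 libraries (left) and without 1 h replicate 1 (right); open circles mark an adjusted p under 0.05. There are 5 called members on the left and 4 on the right, and the bulk of the points moves from above 0 to below 0.

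Members whose groups did not overlap were counted as a further description. Every 3 d library lay above every 1 h library in 531 members (6.14%) and below in 233 (2.69%). The same 531 and 233 are 3.17% and 1.39% of all circRNAs tested, since such a circRNA is listed in all libraries of 1 group and is a member by definition. The share above was alike in the classes, at 6.18%, 6.06%, 6.33% and 4.76%, and the share below grew with abundance, at 1.39%, 4.39%, 5.32% and 9.52% (2 of 21). Without 1 h replicate 1, 546 members (6.31%) lay above, against 3.27% of all tested, and 1889 (21.8%) lay below, against 15.9%. The share below was then 16.5%, 27.5%, 42.3% and 61.9% (13 of 21) from the lowest to the highest class. After median-ratio scaling, again without that library, 1121 members (13.0%) lay above and 970 (11.2%) below, against 6.72% and 10.4% of all tested. On that scale fewer members lay below than above over all classes, while at 10000 SRPBM or above 9 lay below and 6 above. Over all tested the order was the reverse, at 1737 below and 1121 above. Without that library, a circRNA above in every 3 d library is still a member by definition. A circRNA below may be listed in 1 h replicates 2 and 3 alone, and is then left out by the rule.

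How summed signal differed depended on the class. From 100 to 1000 SRPBM, the members summed to 0.308, 1.03 and 1.32 M SRPBM at 1 h and to 0.892, 0.816 and 0.940 M at 3 d. From 1000 to 10000 SRPBM, they summed to 0.382, 1.04 and 1.32 M at 1 h and 0.893, 0.830 and 0.926 M at 3 d. In both classes the 3 d libraries lay between 1 h replicate 1 and the other 1 h libraries, and the ratios of the means were 0.995 and 0.964 (exact permutation p = 1 for both) with all libraries and 0.75 for both without 1 h replicate 1 (exact permutation p = 0.2). At 10000 or above the ratio was 3.78 (exact permutation p = 0.1, the smallest possible, adjusted p = 1), from 5.38 ± 6.05 to 20.4 ± 11.8 M SRPBM (SD, n = 3 each). In that class it was 2.66 without 1 h replicate 1 and 10.5 (exact permutation p = 0.2 for each) without 1 h replicate 3, the only 1 h library that listed CBT15_circR_5191. Over all members the ratio of summed signal was 3.02 (exact permutation p = 0.2). It was 6.40 without 1 h replicate 3, 2.16 without 1 h replicate 1 and 2.09 without 3 d replicate 3, and without the 10 members of highest mean it was 0.98 (exact permutation p = 1). Members held 96.0%, 69.9% and 86.2% of the library signal at 1 h and 98.8% to 99.4% at 3 d. CBT15_circR_5184, no member, lay at 2.11 M SRPBM in 1 h replicate 2. Over every circRNA of the table the ratio was 2.499 (exact permutation p = 0.3). Without the same 10 members, these whole-table sums were 0.859, 4.89 and 5.70 M SRPBM at 1 h and 2.401, 2.181 and 2.503 M at 3 d. 1 h replicates 2 and 3 then lay above every 3 d library.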

How the data were processed

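The deposited table holds circRNA signal in SRPBM, normalized by the authors, and its name gives find_circ as the circRNA caller. The submitters' processing notes name Bowtie 0.12.2 and Rnor_6.0 without their role. Thresholds for calling a circRNA: not given in the sources used here. Per the labels' protocols, total RNA from PAXgene tubes was sequenced in pairs of 150 bp. In each library, values above 0 were whole multiples of 1 step (100% of values, within 0.01 read, from 2 reads up), which gave reads and mapped reads. No 2 libraries were identical (0 pairs).

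Differences were fitted with limma 3.58.1 in R 4.3.3 (trend, 15 libraries, log2(SRPBM + 23.2), circRNAs above 0 in at least 3 libraries, Benjamini-Hochberg). A check on simulated data placed changes only in circRNAs that most libraries listed. It gave each circRNA the same chance of listing in every library, so it did not cover a library like 1 h replicate 1. For listing and signal per library, exact permutation tests (two-sided, scipy 1.17.1) were used. Classes use the mean over the 6 libraries. Named were at most 2 called members per direction and fit, by smallest p, the smallest p per class and direction, and the 10 highest means. Members and rules were chosen with earlier results of these data known. Replicate numbers did not pair the libraries. Alternatives changed pseudocount, filter, scaling, spread, libraries and count model.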

Additional observations from a re-analysis of the deposited data

How the results depend on the processing

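Against 5 called members (6 of 16767 over all tested), limma called 10 with no filter (13 of 43472 over all tested). It called 0 with a filter of at least 3 of the 6 libraries (422 at an unadjusted p under 0.05) and 0 with at least 5 (135). Only members were tested in these 2 fits. It called 0 with no trend (557, against 776 of 16767 over all tested) and 0 with a pseudocount of 1 SRPBM (393, against 643 of 16767). With only the 6 libraries it called 2, where again only members were tested, and with the 9 A&B libraries 3 (3 of 11093 over all tested). A robust fit called 1 (1 of 16767), and scaling to total circRNA signal gave 23, 1 of them higher (26 of 16767). Without both 1 h replicate 1 and sham replicate 2, limma called 51 (65 of 16593 over all tested). Without 1 h replicate 1, it called 3 with median-ratio scaling (3 of 16693) and 11 with total-signal scaling (21 of 16693). The latter 2 settings were added after the data were seen. Leaving out 1 library gave 2 to 18 called members. There were 18 without 1 h replicate 2 (22 of 16077 over all tested), 14 without 1 h replicate 3 (16 of 15588) and 2 without 3 d replicate 3 (2 of 16186). The cause of these changes was not tested. The replicate block gave 8 (11 of 16767 over all tested). Libraries of the same number shared only that number (correlations of deviations from -0.01 to 0.03, and 1 h replicate 2 correlated best with 3 d replicate 3). A planned edgeR fit of the recovered reads, which hold no value of 1 read, was not run. On these reads voom called 7 (7 of 16767 over all tested).

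Ratios of 3 d to 1 h turned in direction as follows. None could pass its exact test, since the smallest p is 0.1 with 3 libraries against 3 and 0.2 with 2 against 3. Listing went to 0.88 without 1 h replicate 1 (0.81, 0.96 and 0.997 in the lower 3 classes), with a range of 0.88 to 1.45 over the libraries left out (0.81 to 1.57, 0.96 to 1.40 and 0.997 to 1.05 in those classes). Signal over all members ran from 2.09 to 6.40 over the libraries left out, and went to 0.98 without the 10 highest members (0.85 at 10000 or above) and to 0.78 under 100 SRPBM without 1 h replicate 1 (0.78 to 1.56 over the libraries left out). From 100 to 1000 SRPBM it was 1.08 without 1 h replicate 2, 1.32 without 1 h replicate 3, 1.03 without 3 d replicate 2 and 1.15 with median-ratio scaling; from 1000 to 10000 it was 1.04, 1.24 and 1.08 without 1 h replicate 2, without 1 h replicate 3 and with that scaling. Over the libraries left out these 2 classes ran from 0.750 to 1.32 and from 0.746 to 1.24.

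Class medians of the log2 difference, from the lowest class up, were -0.23, -0.36, -1.46 and -1.65 scaled to total signal and -0.34, -0.41, -0.42 and -0.63 without 1 h replicate 1. Without that library they were -0.77, -1.10, -1.23 and -1.45 scaled to total signal, and -0.051 and -0.16 in the lowest and highest class with median ratios. Ranges over the libraries left out were -0.34 to 0.47, -0.41 to 1.06, -0.42 to 0.69 and -0.63 to 0.54.

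Among named circRNAs, CBT15_circR_19347 turned to -1.17 scaled to total signal, -0.93 with this and without 1 h replicate 1, and -0.11 without that library, with or without sham replicate 2 (up to 1.01 without 1 h replicate 3). CBT15_circR_24056 turned to -0.78, -0.84 and -0.018 in the same settings (up to 1.53 without 1 h replicate 2). CBT15_circR_5185 turned to -0.82 and -0.42 in the first 2 of them and CBT15_circR_2877 to -0.44 in the second. CBT15_circR_6871 turned to 0.08 and 0.36 without 1 h replicate 2 or 3 (and was -0.64 without 1 h replicate 1), CBT15_circR_9992 to 0.18 without 1 h replicate 3, and CBT15_circR_10908 to 0.054 without 1 h replicate 1 after median-ratio scaling.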
